A study of Arabidopsis thaliana with 15 samples.

Results

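In leaves of Arabidopsis thaliana, 82 genes were strongly lowered by UV-B whether or not the UV-B photoreceptor UVR8 was mutated. They were chosen from the group means of log2 values as genes whose mean under UV-B lay at least 1.8 log2 units below that in white light (3.48-fold, or 28.7% of the white light level left) in wildtype and in the uvr8-1 mutant alike. Of the 13356 genes that had a probe set of their own, 91 passed both thresholds. The 9 of them set aside by name were EXPA8, XTH16, GSTU27, AOP3, BCAT4, AT1G29660, AT4G28780, AT5G48490 and AT1G73600, and the chloroplast-encoded genes were also set aside. The 82 genes are 0.614% of the genes measured. Because these differences chose the genes, the size of their falls in wildtype and uvr8-1 is given as a description and no test is drawn from it. The comparisons of uvr8-1 with wildtype within each light rest on the same arrays and are also given as a description. Tests are given for hy5-1, whose arrays the choice did not use, although the arrays it is compared with were used.

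The samples were total RNA of leaves of the accession Landsberg erecta on 15 Affymetrix ATH1 arrays of 1 colour, 3 for each of 5 groups. Wildtype and uvr8-1 plants were sampled in white light only or after UV-B, and hy5-1 plants, which lack the bZIP transcription factor HY5 of light signalling, after UV-B alone. Plants of every group were 3 weeks old, raised on compost at 21 °C in white light that was never switched off (25 µmol m-2 s-1). The UV-B dose rate was 3 µmol m-2 s-1, applied over 4 h. No hy5-1 array in white light is part of the design, so the response of hy5-1 itself cannot be computed, and each mutant is represented by 1 allele. The arrays of a group are described as biological replicates, but whether they come from separate plantings or pools of plants is not stated, so p-values measure the spread between these arrays. Values are the authors' RMA values on the log2 scale, where a difference of 1 is 2-fold. A level of one probe set cannot be set against that of another, so levels are compared only within a gene.

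UV-B of low intensity is perceived by UVR8, which acts with the ubiquitin ligase component COP1 and through HY5 to induce protective genes, while more intense UV-B also acts through routes that do not need UVR8, among them damage and stress signalling. Leaf expansion is known to slow in plants under UV-B. It depends on loosening and rebuilding of the cell wall, in which pectin, a gel of acidic polysaccharides, is made, cut and modified by secreted enzymes. Of the 82 genes, 9 carry a gene symbol in the annotation and 73 only a locus code. Protein families given below for locus codes are background from general knowledge of these loci, assigned after the values had been seen, and 31 genes were left without one.

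The median of the set separated the 2 lights on every array, although single genes overlapped. For the wildtype and uvr8-1 arrays the choice of the genes brings this about, so it is a description only. This median level over the 82 genes was between 7.2 and 7.68 on the wildtype white light arrays, between 7.2 and 7.52 on those of uvr8-1, between 4.66 and 5.23 on the wildtype UV-B arrays and between 4.88 and 5.19 on those of uvr8-1. The hy5-1 UV-B arrays, which played no part in the choice, had medians between 4.90 and 5.02, within the range of the other UV-B arrays. The median over all genes lay between 3.92 and 3.97 in the 5 group means.

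**Figure D1:**
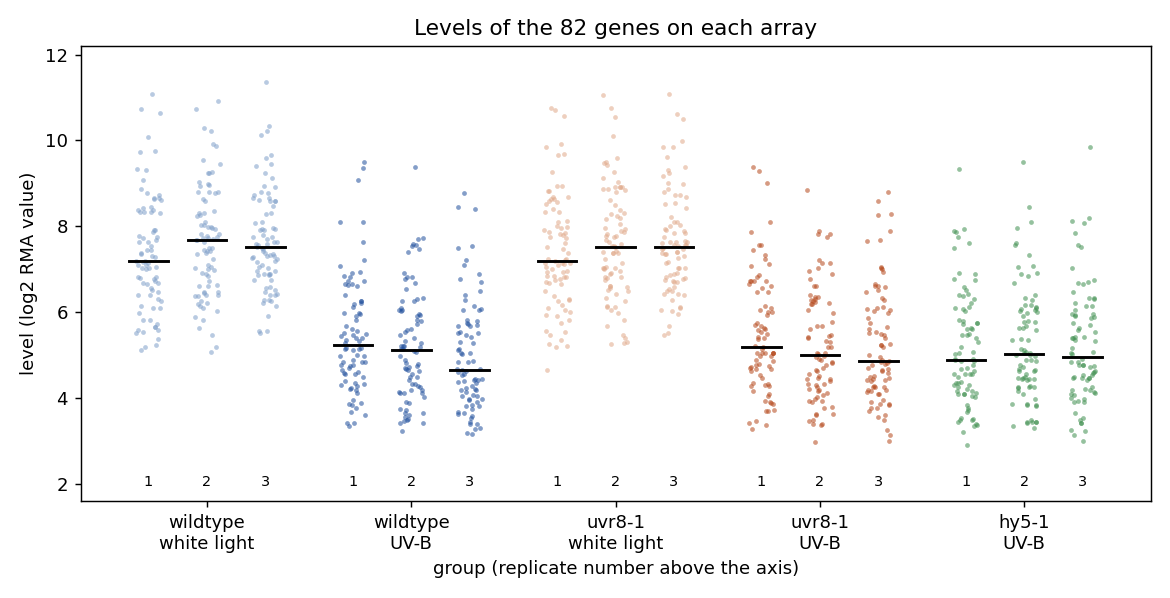
Level of each of the 82 genes (points, log2 RMA value on the vertical axis) on each of the 15 arrays, grouped by genotype and light, with replicate numbers above the axis and the median over the genes as a black bar. The medians of the 6 white light arrays lie between 7.2 and 7.68 and those of the 9 UV-B arrays between 4.66 and 5.23.

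In wildtype the difference between UV-B and white light had a median of -2.22 over the 82 genes, so that 21.5% of the white light level was left, and ran from -3.37 to -1.81. In uvr8-1 the median was -2.09, with 23.5% left, and the range was -3.36 to -1.82. At least 4-fold lower were 69 of the genes in wildtype and 55 in uvr8-1, and at least 8-fold lower were 10 and 2. In limma's fit across all probe sets, 82 of the 82 genes were called lower at an adjusted p under 0.05 in each genotype, where 16.5% of all genes were called lower in wildtype and 16.8% in uvr8-1; the choice of the genes fixes this outcome. The UV-B and white light arrays of wildtype did not overlap for 81 of the genes, against 22.3% of all genes, with AT1G30250 the exception. Those of uvr8-1 did not overlap for 80, against 22.4% of all genes, with AT5G03230 and AT3G19680 the exceptions. These counts too follow from the choice of the genes. Fewer cells of a type and less RNA per cell cannot be told apart in such bulk samples.

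The threshold had no gap around it. Just inside it by the weaker of the 2 responses were AT1G70820 (-1.819), AT5G07580 (-1.819), AT3G56080 (-1.817), AT4G18970 (-1.816) and AT5G14410 (-1.807). Just outside were AT3G05910 (-1.799), AT5G45950 (-1.795), AT1G12845 (-1.789), AT2G39920 (-1.787) and AT2G42320 (-1.780). A further 86 probe sets that the annotation pairs with no gene or with several passed both thresholds, with median differences of -2.31 in wildtype and -2.29 in uvr8-1. They cannot be counted as genes and carry no names here.

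The lowest mean of the 2 responses was that of AT1G54820, which encodes a protein of the kinase superfamily. Its levels on replicates 1, 2 and 3 were 6.81, 7.77 and 7.64 in wildtype in white light and 4.2, 4.14 and 3.98 under UV-B. In uvr8-1 they were 6.68, 7.0 and 7.30 in white light and 3.70, 4.07 and 4.18 under UV-B, and in hy5-1 under UV-B 3.85, 4.64 and 4.21. The 9 UV-B arrays lay together, below each of the 6 white light arrays, with a difference of -3.30 ± 0.26 in wildtype and -3.01 ± 0.26 in uvr8-1 (± standard error from limma's fit). AT4G38690, of the family of phosphatidylinositol-specific phospholipase C-like proteins, was steadier in white light, at 7.67, 7.81 and 7.75 in wildtype and 7.47, 7.51 and 7.64 in uvr8-1. Under UV-B it stood at 4.71, 4.41 and 4.05 in wildtype, at 5.06, 4.34 and 4.49 in uvr8-1 and at 3.68, 4.50 and 4.15 in hy5-1, again with no overlap between the lights. Its differences were -3.35 ± 0.22 in wildtype, which is 10.2-fold lower, and -2.91 ± 0.22 in uvr8-1.

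Of the 82 genes, 8 encode regulators of transcription or RNA. BZIP61, a bZIP transcription factor, had levels of 6.73, 7.96 and 7.42 in wildtype in white light and 4.23, 3.92 and 4.42 under UV-B. In uvr8-1 it went from 6.28, 7.90 and 7.36 to 4.79, 4.70 and 4.67, and in hy5-1 under UV-B it was at 3.76, 3.99 and 4.01. Replicate 1 was the lowest white light array in both genotypes, and the UV-B arrays of the 3 genotypes lay between 3.76 and 4.79. The differences of BZIP61 were -3.18 ± 0.35 in wildtype and -2.47 ± 0.35 in uvr8-1. AT1G78020, of the FLZ family of small zinc finger proteins that bind SnRK1 energy-sensing kinases, went from 7.10, 8.27 and 7.80 to 4.55, 5.22 and 3.95 in wildtype and from 6.78, 8.17 and 8.0 to 5.04, 5.05 and 4.58 in uvr8-1. In hy5-1 it stood at 4.03, 4.16 and 3.94, and no UV-B array reached a white light array. A second gene of that family, AT1G74940, fell by 2.23 in wildtype and 1.88 in uvr8-1.

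The other genes of this kind were AT2G34620, whose product belongs to the mTERF family that acts on organelle gene expression (-3.06 in wildtype and -2.53 in uvr8-1), and AT1G22330, an RNA-binding protein gene (-2.75 and -2.47). AT1G07050, which encodes a CCT domain protein, was at -2.65 and -2.63, the MYB-like gene AT5G58900 at -2.08 and -1.91, and AT5G07580, of the ERF family, at -1.99 and -1.82. Over these 8 genes the white light mean in wildtype lay between 5.73 and 9.19, and hy5-1 differed from wildtype under UV-B by -0.56 to 0.38. limma called 0 of the 8, where it called 2.67% of all genes higher and 4.07% lower, so few calls among 8 genes would be seen at these shares. For AT1G07050 the replicates were uneven: its white light levels in uvr8-1 were 4.65, 6.60 and 6.72, and in wildtype 5.65, 6.85 and 6.46, with replicate 1 the lowest in each. AT1G22330 had a second probe set, at -2.26 and -1.91.

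Of the 82 genes, 6 were grouped as pectin genes. Of these, 5 encode proteins with the fold of pectin lyases and polygalacturonases, enzymes that cut pectin chains, and AT5G62360 encodes an invertase or pectin methylesterase inhibitor. AT5G63180 stood at 8.31, 8.30 and 7.97 in wildtype in white light and at 5.67, 5.58 and 5.30 under UV-B. In uvr8-1 it moved from 8.41, 8.61 and 8.03 to 5.76, 5.69 and 5.99, and hy5-1 under UV-B gave 5.61, 5.98 and 5.93. The UV-B arrays of the 3 genotypes thus lay close together, and all were below the lowest white light array.

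AT5G62360 varied little between arrays, and its differences of -2.05 ± 0.10 in wildtype and -2.08 ± 0.10 in uvr8-1 had the smallest standard error of the 82. It went from 5.37, 5.48 and 5.57 to 3.41, 3.42 and 3.45 in wildtype and from 5.76, 5.48 and 5.46 to 3.47, 3.39 and 3.61 in uvr8-1, with hy5-1 at 3.38, 3.42 and 3.26. Its UV-B levels were among the dimmest 40% of probe sets, which had a mean under 3.74 over the arrays. Of the 82 genes, 8 had a wildtype UV-B mean under this value, and differences of such genes are limited by the low end of the scale. The differences in wildtype and uvr8-1 were -2.41 and -2.28 for AT3G06770, -2.31 and -2.29 for AT4G24780, -2.13 and -2.01 for AT3G07010 and -1.91 and -1.91 for AT1G04680. Between hy5-1 and wildtype under UV-B the 6 pectin genes differed by -0.72 to 0.33, and limma called 0 of them in either comparison of hy5-1. Of all genes, 2.67% were called higher and 4.07% lower against wildtype, and 4.87% and 7.2% against uvr8-1. Among as few as 6 genes, the absence of a call cannot be set apart from these shares.

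Other genes of secreted and wall proteins also belonged to the set. TBL25, which adds acetyl groups to mannan of the wall, went from 7.75, 7.83 and 8.11 to 6.12, 5.22 and 5.42 in wildtype and from 8.0, 7.76 and 7.93 to 6.73, 5.46 and 5.6 in uvr8-1. Replicate 1 was the highest UV-B array in both genotypes, and the lights did not overlap. AT4G16980, which encodes an arabinogalactan-type protein, was at 11.09, 10.91 and 11.36 in wildtype in white light and at 9.49, 9.38 and 8.78 under UV-B, a difference of -1.90 ± 0.19. It remained a strong signal under UV-B. Its second probe set was near background, with a mean of 3.44, and showed -0.05 and -0.07 in the 2 genotypes.

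RALFL22, of the RALF family of secreted peptide signals, was at -1.95 and -1.88 and BGLU40, a beta-glucosidase, at -1.85 and -2.23. The subtilase genes AT5G45650 and AT4G30020, whose products are secreted proteases, were at -2.55 and -1.93 in wildtype, and the GDSL lipase genes AT1G33811 and AT4G18970 at -2.07 and -1.85. AT5G11420, a wall protein gene of the DUF642 family, was at -2.18 ± 0.13 and -1.88 ± 0.13. Over these 9 genes the median difference was -1.95 in wildtype and -2.01 in uvr8-1. Between hy5-1 and wildtype under UV-B they differed by -0.16 to 1.27. limma called 2 of the 9 against wildtype and 4 against uvr8-1, all higher in hy5-1. Of all genes, 2.67% and 4.87% were called higher in these comparisons. With the RNA quality index described below as a covariate, 0 were called.

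**Figure D2:**
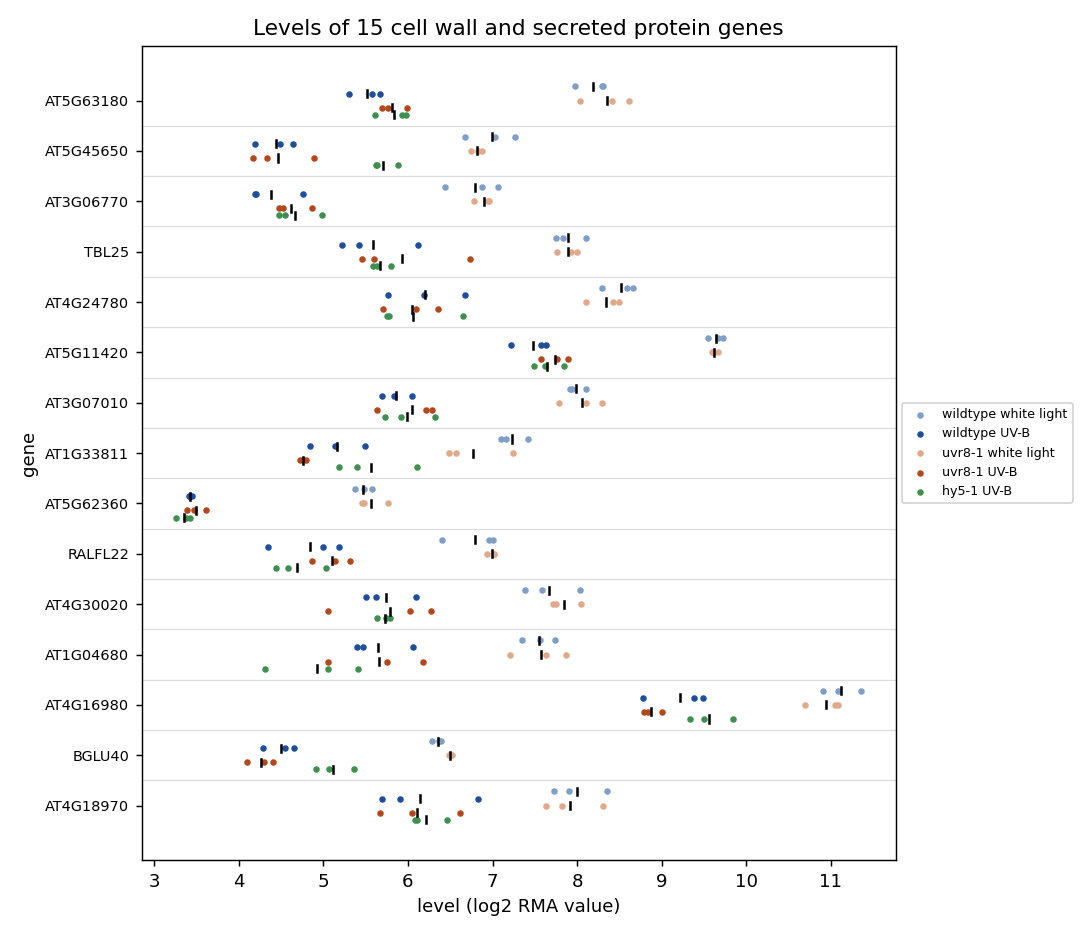
Levels (log2 RMA value, horizontal axis) of the 6 pectin genes and the 9 other genes of secreted and wall proteins, ordered by their difference in wildtype. Points are arrays, coloured by group, and black ticks are means of 3 arrays; for AT5G63180 the wildtype white light arrays lie between 7.97 and 8.31 and the wildtype UV-B arrays between 5.30 and 5.67.

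Of 10 genes with a role in signalling, 5 encode kinases or kinase-like proteins. Beside AT1G54820 these were AT4G01330 (-2.49 in wildtype and -2.08 in uvr8-1), AT4G34220, a leucine-rich repeat kinase (-2.21 and -2.03), AT4G02630 (-2.08 and -1.90) and AT3G13690 (-2.04 and -2.09). DRT100, a leucine-rich repeat protein named for its effect in repair-deficient bacteria, went from 9.07, 9.25 and 8.47 to 6.63, 6.78 and 6.07 in wildtype and from 8.83, 9.04 and 8.68 to 6.65, 6.90 and 7.03 in uvr8-1, with hy5-1 at 6.42, 6.39 and 6.31. AT3G19850 and AT3G15570 belong to the family of NPH3, a partner of the phototropin blue light receptors, and were at -3.06 and -2.17 in wildtype. The calmodulin-binding genes iqd21 and IQD24 were at -2.14 and -1.91. Of the 10 genes limma called 1, iqd21, lower in hy5-1 than in wildtype and than in uvr8-1. Of all genes, 4.07% and 7.2% were called lower in these comparisons.

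Metabolic enzymes and other genes of assigned family numbered 17, with a median of -2.30 in wildtype and -2.22 in uvr8-1. limma called 3 of the 17 in each comparison of hy5-1 under UV-B. Of all genes, 2.67% were called higher and 4.07% lower against wildtype, and 4.87% and 7.2% against uvr8-1. AOP1, a dioxygenase related to the glucosinolate enzyme AOP3, went from 5.52, 6.03 and 6.51 to 3.76, 3.61 and 3.27 in wildtype and from 6.10, 5.28 and 6.02 to 3.88, 3.49 and 3.57 in uvr8-1. It neighbours AOP3, which fell by 3.90 and 3.87. CRR42, needed to assemble the chloroplast NDH complex, went from 6.77, 6.90 and 6.88 to 4.35, 5.09 and 3.99 in wildtype, and its difference in uvr8-1 was -2.66. The acid phosphatase genes AT5G44020, AT1G04040 and AT1G25230 were at -2.55, -2.46 and -2.30 in wildtype, and the DNA glycosylase gene AT5G44680 at -2.63.

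Among the genes with no family assigned, AT5G16030 had the largest difference of the 82 in wildtype, from 7.77, 8.03 and 8.61 to 4.99, 4.88 and 4.42. In uvr8-1 it went from 6.84, 7.77 and 7.92 to 5.54, 5.43 and 4.81, and it was at 4.35, 4.41 and 4.61 in hy5-1. Its difference was -3.37 ± 0.29 in wildtype and -2.25 ± 0.29 in uvr8-1, the widest gap between the genotypes in the set. AT1G13650 had the largest difference in uvr8-1, -3.36 ± 0.65, against -2.94 ± 0.65 in wildtype. Its replicates were far apart in white light, at 7.02, 5.18 and 8.28 in wildtype and 7.52, 5.41 and 7.14 in uvr8-1, with replicate 2 the lowest in each. AT1G26920 was at -3.09 and -2.91, AT3G06070 at -3.12 and -2.76 and AT4G33960 at -3.02 and -2.81.

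A few genes neighbour each other on the chromosome. In the gene order of RefSeq assembly TAIR10.1, 4 of the 82 genes lie next to another of the set. AT4G30650 and AT4G30660, which encode small membrane proteins of the family induced by low temperature and salt, were at -2.01 and -2.12 in wildtype and at -2.40 and -2.28 in uvr8-1. AT1G30250 and AT1G30260 were at -2.55 and -2.27 in wildtype and at -2.74 and -2.48 in uvr8-1. Both of the latter were higher on replicate 1 than on the other arrays of the group in wildtype and uvr8-1, in each light. The levels of AT1G30250 were 8.78, 7.05 and 7.50 in wildtype in white light, 7.08, 4.2 and 4.37 under UV-B, 8.94, 7.42 and 7.37 in uvr8-1 in white light and 6.83, 4.46 and 4.2 under UV-B, so that its standard error, 0.82, was the largest of the 82. Of 89 other measured direct neighbours, 24 were called lower in wildtype and 9 higher, with a median of -0.13. Of all genes 16.5% were called lower and 10.8% higher, with a median of -0.03.

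Uneven replicates were common in the set. In wildtype, replicate 1 gave the lowest of the 3 white light levels for 53 of the 82 genes and the highest of the 3 UV-B levels for 50, against 33.6% and 38.9% of all genes. In uvr8-1 the numbers were 44 and 45 of the 82, against 32.0% and 50% of all genes. The UV-B count in uvr8-1 was thus near the share of all genes. The replicate 1 arrays of these groups also had narrower distributions of values, with an interquartile range of 3.01 to 3.18 against 3.25 to 3.39 on replicates 2 and 3. How far this narrowing sets the smaller falls on replicate 1 was not tested.

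The falls were compared between the genotypes. In 56 of the 82 genes the fall was weaker in uvr8-1 than in wildtype and in 26 stronger. The difference of the 2 responses follows from the values used to choose the genes and is given without a test. It had a median of 0.13, against 0.02 over all genes, and ran from -0.49 for AT1G15260 to 1.12 for AT5G16030. The matching counts over all genes are not given here, so nothing is read from the split. For 74 genes it lay within 0.5 of 0. BZIP61 (0.72) and AT3G19680 (0.64) followed AT5G16030. Genes whose fall was lost in uvr8-1 could not be among the 82.

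Levels of uvr8-1 and wildtype within each light come from arrays that chose the genes, and a rule that asks for a fall in both genotypes favours like levels, so limma's counts are given without reading anything from them. Under UV-B none of the 82 genes was called higher, against 0.397% of all genes, or lower, against 1.67%. The differences ran from -0.57 to 0.80 with standard errors of 0.10 to 0.82. An unadjusted p under 0.05 in limma's fit was found for 2 of the 82 genes, against 10.8% of all genes. These were AT4G12980 (-0.45) and AT1G25230 (0.54). In white light none was called higher, against 0.00749% of all genes, or lower, against 0.0% of all genes, and the differences ran from -0.63 to 0.36. In limma's fit 0 of the 82 had an unadjusted p under 0.05 there, against 1.62% of all genes. A call that was not made does not show equal levels. This fit does not pair arrays by replicate number. In it, a difference above 2-fold would not have been called for genes with wide standard errors such as AT1G30250. Much of that width was shared by the genotypes: in order of replicate number, its UV-B levels were 7.08, 4.2 and 4.37 in wildtype and 6.83, 4.46 and 4.2 in uvr8-1.

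The hy5-1 arrays offered levels that the choice of genes had not used. In 81 of the 82 genes the 3 hy5-1 UV-B arrays lay below all 6 white light arrays of wildtype and uvr8-1, which held for 21.3% of all genes. The exception was AT3G19680, with 5.81, 5.11 and 5.34 in hy5-1 against 5.72, 7.70 and 7.32 in wildtype and 6.0, 7.02 and 8.22 in uvr8-1 in white light. The hy5-1 mean under UV-B differed from the wildtype mean in white light by -3.90 to -1.22, with a median of -2.27, against 0.04 over all genes. It passed -1.8 against the white light means of wildtype and uvr8-1 alike for 61 of the 82 genes and for 1.36% of all genes. This sets a mutant under UV-B against other genotypes in white light, and the white light arrays had been used to choose the genes, so genotype and light cannot be told apart in it.

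**Figure D3:**
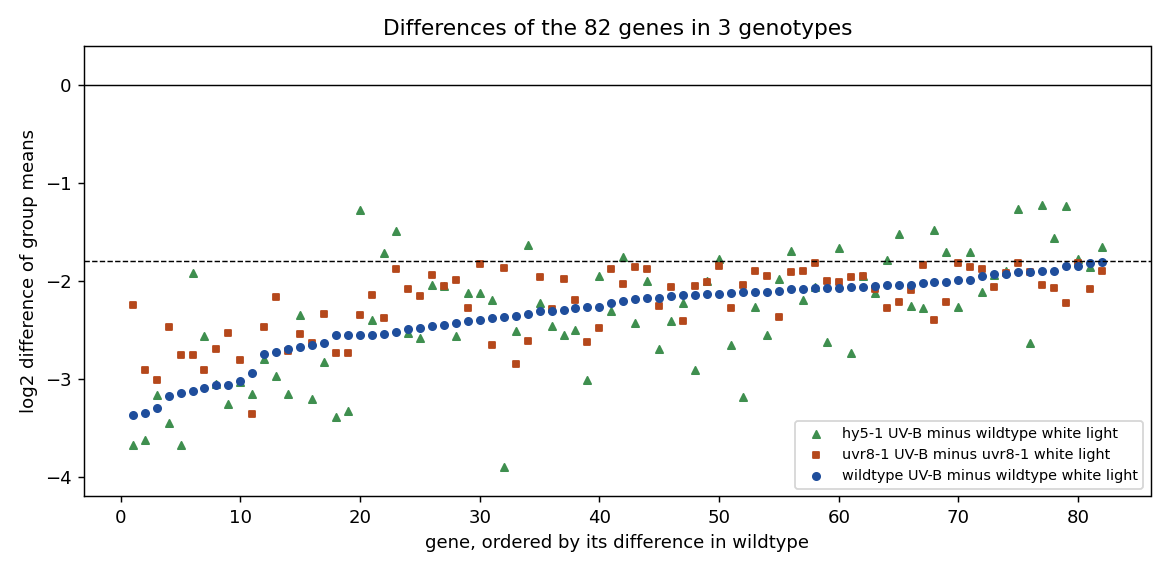
Log2 differences of group means (vertical axis) for the 82 genes, ordered by the difference in wildtype: wildtype (circles) and uvr8-1 (squares) under UV-B minus the same genotype in white light, and hy5-1 under UV-B minus wildtype in white light (triangles). The dashed line is the threshold of -1.8; circles and squares lie below it by choice, while the triangles run from -3.90 to -1.22.

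Under UV-B the difference between hy5-1 and wildtype had a median of -0.04 over the 82 genes, against 0.05 over all genes. It lay within 0.5 of 0 for 58 of the 82 and for 88.0% of all genes, and 14 of the 82 had an unadjusted p under 0.05 in limma's fit, against 23.5% of all genes. Against uvr8-1 the median was -0.15, against 0.05 over all genes, with 48 within 0.5 of 0, against 84.3% of all genes, and 23 at an unadjusted p under 0.05 in limma's fit, against 27.7%. The shares within 0.5 of 0 do not compare like genes. The median standard deviation of the wildtype UV-B arrays was 0.36 over the 82 genes and 0.15 over all genes. Under UV-B in wildtype, 47.0% of all genes had a mean below 3.74, against 8 of the 82. Whether hy5-1 shifts the 82 genes more than others of like level and spread was not tested. limma called 4 higher in hy5-1 than in wildtype, against 2.67% of all genes, and 4 lower, against 4.07%. These are 4.88% of the 82 genes in each direction, near the shares among all genes. The wildtype UV-B arrays entered the choice of the genes and the hy5-1 arrays did not. Against uvr8-1 under UV-B, 6 genes were called higher in hy5-1, against 4.87% of all genes, and 5 lower, against 7.2%. The 8 genes called against wildtype were called in the same direction against uvr8-1, where the hy5-1 arrays are shared.

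The gene furthest below wildtype was AT3G26450, of the family of major latex and Bet v 1-like proteins. It was at 4.10, 4.26 and 4.83 in hy5-1 against 5.98, 6.25 and 5.52 in wildtype and 6.0, 6.24 and 6.08 in uvr8-1 under UV-B. Every hy5-1 array lay below the other UV-B arrays, with a difference of -1.52 ± 0.23 to wildtype (limma adjusted p = 0.00301) and -1.71 ± 0.23 to uvr8-1 (limma adjusted p = 0.00078). AT1G02300, which encodes a cathepsin B-like cysteine protease, was at 4.56, 5.07 and 4.75 in hy5-1 against 5.95, 5.95 and 5.71 in wildtype, a difference of -1.08 ± 0.16 (limma adjusted p = 0.00234). The wildtype difference between the lights was -2.37 for AT3G26450 and -2.11 for AT1G02300, and hy5-1 under UV-B differed from wildtype in white light by -3.90 and -3.19. AT4G37080, which encodes a protein with a leucine zipper and a DUF547 domain, was at 4.31, 4.26 and 4.46 in hy5-1 and at 5.39, 5.08 and 5.11 in wildtype, a difference of -0.85 ± 0.14 (limma adjusted p = 0.00474). The calmodulin-binding gene iqd21 differed by -0.77 ± 0.19 (limma adjusted p = 0.0284).

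Higher in hy5-1 was the subtilase gene AT5G45650, at 5.62, 5.63 and 5.88 against 4.49, 4.64 and 4.19 in wildtype and 4.89, 4.33 and 4.17 in uvr8-1. The hy5-1 arrays lay between the other UV-B arrays and the white light arrays, the lowest of which was 6.68, and the difference was 1.27 ± 0.19 to wildtype (limma adjusted p = 0.00277) and 1.25 ± 0.19 to uvr8-1 (limma adjusted p = 0.00149). AT3G06070 was at 5.41, 5.69 and 5.17 in hy5-1 against 4.6, 4.32 and 3.74 in wildtype (1.20 ± 0.29, limma adjusted p = 0.0243). AT4G12980, which encodes an auxin-responsive cytochrome b561 protein, was at 5.49, 5.78 and 5.35 against 5.16, 4.82 and 4.53 (0.70 ± 0.17, limma adjusted p = 0.0241), and BGLU40 at 4.91, 5.36 and 5.07 against 4.55, 4.65 and 4.29 (0.62 ± 0.12, limma adjusted p = 0.0124). Called against uvr8-1 and not against wildtype were AT1G33811 (0.80 ± 0.24, limma adjusted p = 0.0439), AT4G16980 (0.68 ± 0.19, limma adjusted p = 0.0335) and AT3G18050 (-0.72 ± 0.22, limma adjusted p = 0.048). Of 13 alternative fits, 7 lost the call of AT1G33811, 5 that of AT4G16980 and 9 that of AT3G18050. Of the calls against wildtype, iqd21 and AT4G12980 lost theirs in 6 of the 13 fits each, AT3G06070 in 5 and BGLU40 in 3. AT3G26450, AT1G02300, AT4G37080 and AT5G45650 lost theirs in 1 each.

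**Figure D4:**
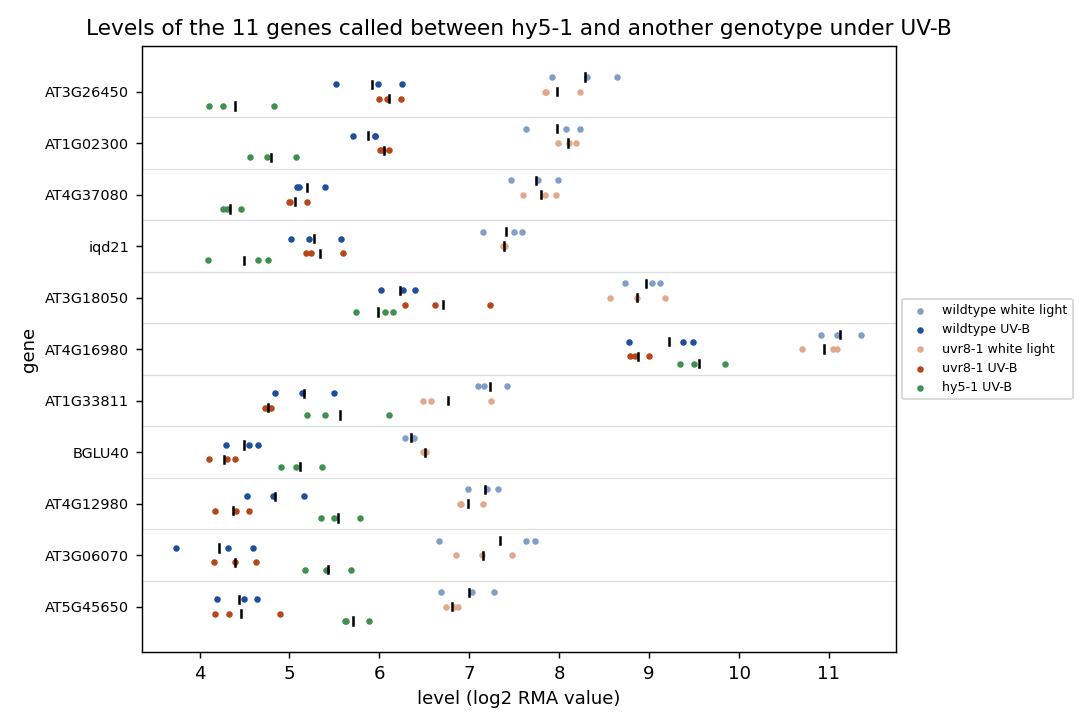
Levels (log2 RMA value, horizontal axis) of the 11 genes called by limma between hy5-1 and wildtype or uvr8-1 under UV-B, ordered by the difference between hy5-1 and wildtype. Points are arrays, coloured by group, and black ticks are means of 3 arrays; AT3G26450 at the top is at 4.10 to 4.83 in hy5-1, and AT5G45650 at the bottom at 5.62 to 5.88.

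The hy5-1 arrays also stood apart in a measure of RNA quality. The 3' minus 5' index, the mean log2 difference between the 3' and 5' control probe sets of actin, GAPDH and ubiquitin, was 2.43 to 3.04 on the hy5-1 arrays and 1.77 to 2.36 on the other 12. With this index as a covariate limma called none of the 82 genes in either comparison of hy5-1. The standard errors of the 11 genes for hy5-1 minus wildtype then rose from between 0.12 and 0.29 to between 0.29 and 0.69, and the differences themselves moved. Of the 19 called differences, 10 became smaller by over 1.5 times, 1 larger and 8 stayed within 1.5 times, with no change of sign. AT1G33811 went from 0.80 to 0.02 and AT3G18050 from -0.72 to -0.18 against uvr8-1. Against wildtype AT3G26450 went from -1.52 to -0.80, AT4G37080 from -0.85 to -0.39, iqd21 from -0.77 to -0.30 and AT4G12980 from 0.70 to 0.32. AT4G16980 went from 0.68 to 1.45 against uvr8-1, while AT1G02300 stood at -1.21 and AT5G45650 at 1.65 against wildtype. Since the index of hy5-1 does not overlap that of the other groups, genotype and index cannot be told apart. The hy5-1 arrays also had narrower distributions of values, with an interquartile range of 2.94 to 3.08 against 3.15 to 3.39 on the other UV-B arrays. With quantile normalisation, which gives all arrays the same distribution, 4 genes were called higher and 4 lower in hy5-1 than in wildtype. Against uvr8-1 the counts were then 6 and 4. In fits that left out 1 array, the genes called higher in hy5-1 than in wildtype fell to 1 without hy5-1 replicate 2 and to 2 without hy5-1 replicate 1, wildtype UV-B replicate 2 or wildtype UV-B replicate 3. Those called higher than in uvr8-1 fell to 3 without hy5-1 replicate 2, uvr8-1 UV-B replicate 2 or uvr8-1 UV-B replicate 3, and those called lower than in uvr8-1 fell to 3 without hy5-1 replicate 1. AT3G26450, AT1G02300, AT4G37080 and AT5G45650 were called against wildtype in each of the 6 fits without 1 array.

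Related genes outside the set were counted from lists by gene symbol. Of all genes 10.8% rose and 16.5% fell in wildtype, and 11.4% rose and 16.8% fell in uvr8-1. Of 13 bZIP genes beside BZIP61, 3 rose and 3 fell in wildtype and 3 rose and 2 fell in uvr8-1. With BZIP61 the list had medians of -0.07 and -0.04, against -0.03 over all genes in each. BZIP34, the closest relative of BZIP61, fell by 1.57 in wildtype and by 1.46 in uvr8-1 (limma adjusted p = 0.000705 and 0.00116), and bZIP19, of the response to zinc deficiency, fell by 0.43 and 0.62. In the opposite direction, BZIP60, a factor of the unfolded protein response, rose by 3.22 and 3.20. Of 6 measured nuclear photosynthesis genes 4 fell in each genotype, none by the threshold of the set in both, among them LHCB4.2 (-2.34 and -1.48), an antenna protein gene. Of 7 calcium-sensor genes none was called lower, and 4 were called higher in wildtype and 5 in uvr8-1, such as CML42 (2.74 and 2.69). Of 7 auxin genes none was called in wildtype, where IAA29 was at -0.61 ± 0.35, and IAA30 rose by 0.44 in uvr8-1. The lists with 1 or 2 measured genes gave TCP15, a factor of leaf growth (-1.38 and -1.17), and MYBC1 (-0.86 and -1.01) as called lower in both genotypes, and of 2 homeobox genes none was called. Of 1 measured gene each, the wax list had 0 called in wildtype and 1 lower in uvr8-1, and the brassinosteroid and nutrient transport lists had 0 called in either. The lists for aquaporins, FLZ zinc fingers, leucine-rich repeat, arabinogalactan and ribosomal proteins found 0 genes because they match symbols, and most genes here carry a locus code. They say nothing of these families, of which the set itself holds members such as AT1G78020 and AT4G34220.

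The leaf label was checked against marker genes, few of which had a probe set of their own. RCA, the Rubisco activase of mesophyll, was at 12.46 in wildtype in white light and at 12.25 to 12.39 in the UV-B groups. The guard cell lineage genes FMA and SPCH were at 6.08 and 4.90 in wildtype in white light and at 5.69 and 4.35 under UV-B, and the trichome gene TRY at 4.03 and 3.80. Of the root markers EXPA7 was near background, at 3.24 to 3.57 in the 5 groups, while PYK10 was at 8.03 in wildtype in white light, 7.59 under UV-B and 6.88 in hy5-1. The epidermis list gave FDH alone, at 10.21 and 10.78 in wildtype and at 10.37 and 11.26 in uvr8-1 in white light and under UV-B, but this symbol is shared by unrelated genes and was not read as a marker. These differences were not tested, and their part in the falls described above was not tested.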

How the data were processed

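Leaf RNA was measured on 15 ATH1 arrays. The values are log2 RMA values made by the authors, per the submitters' processing notes. The RMA version, its background step and whether 1 run covered all arrays were not given in the sources used here. Values ran from 1.99 to 13.1 and array medians from 4.31 to 4.4, and the number of arrays limits the precision. Of 22810 probe sets, 64 controls were left out. In the array annotation 13513 of the rest had 1 gene, 503 several and 8730 none. Where a gene had several probe sets of its own, the brightest on average was taken. Symbols came from RefSeq TAIR10.1, which matched 13508 single-gene probe sets.

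limma 3.58.1 in R 4.3.3 fitted 1 mean per group over all arrays (lmFit and eBayes, 10 residual degrees of freedom), with Benjamini-Hochberg adjustment over 22746 probe sets and a threshold of 0.05. The script was tested on simulated data. Gene lists used symbols and synonyms, since the annotation used here holds no product text. The genes and lists were chosen with earlier results of these data known. The text names the genes with the lowest mean response, those called between genotypes, those nearest the threshold and list genes; other genes were named by family after their values were seen. Alternatives were other scalings, a filter on dim probe sets, an intensity trend, the RNA quality index, the replicate number as a block, the groups compared alone and each array left out in turn. Same-numbered arrays of wildtype and uvr8-1 groups that share a genotype or a light deviated together (r of deviations from group means 0.104 to 0.684). Arrays of unlike number gave -0.569 to 0.116, so the ranges overlap slightly. The numbers were taken to pair these arrays, as judged from the data. Groups that differ in both genotype and light were not compared in this way. The hy5-1 arrays did not pair with the others by number (-0.026 to 0.123). Sequences and promoter motifs were not analysed here.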

Additional observations from a re-analysis of the deposited data

How the results depend on the processing

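The number of genes that met the rule was 164 with a threshold of -1.5 and 50 with -2. It ran from 71 to 93 when 1 wildtype or uvr8-1 array was left out, and was 79 with median centring and 83 with quantile normalisation, each with 79 of the 82 genes. It was 80 when every single-gene probe set of a gene had to pass. The second probe sets of AT4G16980 (-0.05 in wildtype and -0.07 in uvr8-1) and AT1G31690 (-1.91 and -1.13) did not pass. With the 3' minus 5' index as a covariate, the genes called between hy5-1 and wildtype under UV-B were 0 higher and 0 lower, and those between hy5-1 and uvr8-1 were 0 higher and 0 lower. Genotype and index cannot be told apart there. With the replicate block over all arrays, 10 genes were called lower in hy5-1 than in uvr8-1, 6 higher, and 6 higher and 6 lower than in wildtype; hy5-1 arrays do not pair with the others by number. With the replicate block over the wildtype and uvr8-1 arrays, 82 genes were called lower in each response and 0 were called between the genotypes in either light. The counts were the same without the block. Since the choice of the genes fixes or favours them, they do not show whether the pairing matters. Leaving out 1 array at a time, the genes called in hy5-1 ran from 1 to 6 higher and 3 to 4 lower against wildtype, and from 3 to 7 higher and 3 to 5 lower against uvr8-1. Between uvr8-1 and wildtype under UV-B they ran from 0 to 1 higher (1 without wildtype UV-B replicate 2) and stayed at 0 lower, and in white light at 0. Calls of a fall under UV-B numbered 81 to 82 for wildtype and 79 to 82 for uvr8-1. Of the 19 calls of single genes between hy5-1 and the other genotypes, 5 were lost when only the groups compared were fitted, 1 with median centring, 1 with quantile normalisation and 0 with the brighter 60% of probe sets or an intensity trend, and none changed sign under any alternative run. With the index as a covariate all 19 calls were lost and 10 of the differences became smaller by over 1.5 times, AT1G33811 to 0.02.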
